A study of Gossypium hirsutum with 42 samples.

Results

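The leaves of 2 paternal inbred lines of upland cotton, Z98-15 (line B) and 851-2 (line C), were compared gene by gene. The members are the 3 leaf libraries of B and the 3 of C, which are 6 of the 42 libraries of the series and were chosen by the cultivar and tissue in their labels, not by any measured value. The series sequenced messenger RNA from root and leaf of 7 genotypes: the maternal inbred SJ48 (A), the paternal inbreds B, C and DT-8 (D), and their F1 hybrids SJ48 × Z98-15 (H), SJ48 × 851-2 (M) and SJ48 × DT-8 (L). All were untreated seedlings in hydroponic Hoagland culture, harvested once the first true leaves had opened fully, with 3 replicates per genotype and tissue. Roots and leaves of a replicate were taken from the same plant, and the hour of harvest was not given. B and C never meet in one cross of the series. Each is crossed to the same mother, so the hybrids H and M differ in their paternal genome only.

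Upland cotton is an allotetraploid whose A and D subgenomes carry paired copies (homoeologues) of most genes. Green leaves spend most of their transcripts on light capture and carbon fixation, and cotton leaves are also known for terpenoids, the gossypol group made from a sesquiterpene precursor in pigment glands, and for flavonoids and condensed tannins. Inbred lines bred apart can differ in the presence, sequence or regulation of single genes, most often within clustered families such as terpene synthases, cytochromes P450 and resistance genes.

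Levels were given by the study as FPKM, fragments counted per unit of gene length and of mapped fragments, and were compared as log2(FPKM + 1). All differences below are C minus B on that scale, which understates the change of genes with low FPKM. The 6 libraries summed to 403211.4 to 415323 FPKM and listed 74476 to 75762 of 100881 genes above 0. Correlations of log2(FPKM + 1) over the genes tested were 0.938 to 0.944 among the B libraries, 0.921 to 0.929 among the C libraries and 0.897 to 0.916 between the lines. The summed FPKM of 90 leaf marker genes (light-harvesting proteins, rubisco small subunit, rubisco activase and photosystem II subunits) was 22150 to 27960 in the leaf libraries and 309.3 to 445.6 in the root libraries of B and C, and 57 root marker genes summed to 16.65 to 30.52 in leaf, with 27 to 35 of them at 0, and to 1259 to 1797 in root. The leaf marker sum was 22150 to 24020 in the C leaves and 25090 to 27960 in the B leaves, so every C library was below every B library. None of the 74 leaf, 5 root and 68 seed and pollen markers tested passed the limits below. By the study's sequencing summary, all 3 C leaf libraries had fewer valid reads and a lower base quality than all 3 B leaf libraries. Sequencing and line can therefore not be told apart in leaf. The root libraries of the lines were alike in base quality, but C roots had on average fewer valid reads and a lower mapped share than B roots.

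Of 54835 genes tested, 779 (1.42%) were called between the leaves of C and B, which means that limma gave a p below 0.05 after Benjamini-Hochberg adjustment and that the log2 difference exceeded 1 in size. Of these, 472 were higher in C (0.861% of the genes tested) and 307 were higher in B (0.56%). The median log2 difference over all genes tested was 0.06, and centring each library on its median moved the split to 386 and 387 genes and quantile normalization to 405 and 351, so that an excess of genes higher in C depends on the scaling. In 774 of the 779 genes the libraries of the lines did not overlap, which was the case for 24% of all genes tested. At an unadjusted p, 1166 genes (2.13%) passed. A deposited description was present for 223 of the called genes, 118 higher in C and 105 higher in B, and 447 of the called loci had no gene name.

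**Figure D1:**
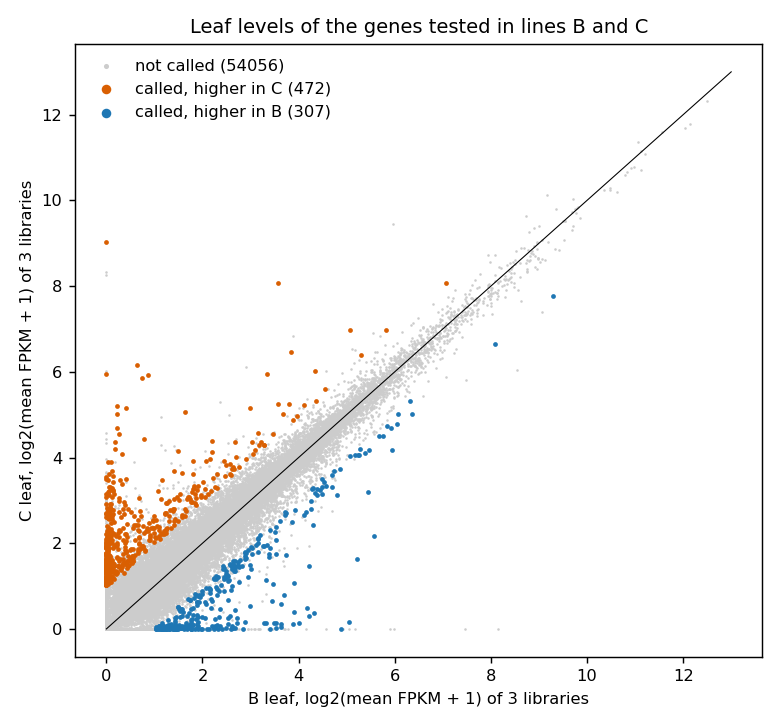
Mean leaf level of each gene tested in line B (x axis) and line C (y axis), both as log2(mean FPKM + 1) of 3 libraries, with the line of equal levels. The 472 genes higher in C (orange) and the 307 higher in B (blue) lie mostly along the axes, where one line is close to 0.

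Most called genes were close to 0 in one of the lines, and in such bulk RNA fewer cells of a type and less RNA per cell cannot be told apart. Among the genes higher in C, 303 of 472 had a mean FPKM under 0.5 in B, and 76 were listed at 0 in all 3 B libraries. Among those higher in B, 156 of 307 had a mean under 0.5 in C, and 42 were listed at 0 in all 3 C libraries. The median log2 difference of the called genes was 1.44 for those higher in C and -1.33 for those higher in B. Differences above 3 were found for 38 genes and below -3 for 19. Abundant genes were few: 13 of the genes higher in C and 10 of those higher in B reached a mean FPKM of at least 50 in the higher line.

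Enzymes of carotenoid, terpenoid and redox metabolism, a protease and a germin were among the described genes with the largest differences toward C. The gene annotated as nine-cis-epoxycarotenoid dioxygenase 4 (Gh_D12G2009), a member of the carotenoid-cleaving enzymes that make abscisic acid precursors and other carotenoid products, was at 0.688, 0.734 and 0.609 FPKM in the B leaves and at 55.5, 59.98 and 54.0 FPKM in the C leaves. The lines were separated by more than the whole spread within either, with a log2 difference of 5.10 ± 0.56 (SE, n = 3 and 3, limma adjusted p = 1.65e-05). Cytochrome P450 76C4 (Gh_A08G2395), whose family oxidises monoterpene alcohols in Arabidopsis, was at 0.658, 0.990 and 0.812 FPKM in B and at 62.6, 69.8 and 48.0 FPKM in C (log2 difference 5.06 ± 0.50, limma adjusted p = 5.02e-06). Both genes were also higher in C root than in B root, at 7.16 ± 0.30 against 0.169 ± 0.025 FPKM for the dioxygenase and 3.73 ± 1.07 against 0.802 ± 0.035 FPKM for the P450 (SD, n = 3).

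A gene for a pyridine nucleotide-disulphide oxidoreductase (Gh_A03G0591), a flavin-dependent redox enzyme family, was at 19.6, 10.1 and 3.12 FPKM in the B leaves and at 303.7, 276.8 and 230.4 FPKM in the C leaves. The B libraries scattered over a wide range, yet none came near C (log2 difference 4.78 ± 0.36, limma adjusted p = 1.39e-07). The maternal line A was low like B, at 7.56 FPKM, whereas the hybrids H and M were both high, at 289.3 ± 11.3 and 245.2 ± 16.4 FPKM. An aspartyl protease gene (Gh_A02G0805), of a family that cuts proteins by means of acidic residues in its own active site, was listed at 0 in all 3 B leaves. In the C leaves it was at 68.7, 65.8 and 48.5 FPKM (limma adjusted p = 0.00705). Its order was the opposite in root, with 9.42 ± 1.35 FPKM in B and 0 in all 3 libraries of C.

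An ankyrin repeat gene (Gh_A01G0599), of a family that binds other proteins, was at 0.205, 0.319 and 0.484 FPKM in B and 36.5, 33.3 and 34.7 FPKM in C. Its limma adjusted p of 0.02 rose to between 0.0512 and 0.076 when any 1 of the 6 libraries was left out. The call was also lost in the fit of the 12 inbred libraries (limma adjusted p = 0.0914). It was kept when only the 6 libraries of B and C were fitted. A ribosomal protein S9 gene (Gh_A06G0106), a component of the ribosome, was at 2.12, 2.03 and 2.17 FPKM in B and 42.3, 25.2 and 29.6 FPKM in C. A RALF-like 27 gene (Gh_D07G0786), which encodes a small secreted peptide of a family that signals through receptor kinases, was listed at 0 in B and at 5.81, 7.78 and 5.93 FPKM in C. The germin 3 gene (Gh_D09G0765), a cell wall protein of the cupin family, had the largest difference of all, 6.41, and it is named here after its values were seen. It was listed at 0 in all 3 B libraries and also in C library 1, against 725.4 and 848.1 FPKM in C libraries 2 and 3, so the lines overlapped. Its limma adjusted p of 0.0262 rose to 0.296 when only these 6 libraries were fitted, and A leaves had 542.2 ± 44.3 FPKM.

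Among the described genes higher in B, a ribosomal protein gene, a terpenoid cyclase and a transcription factor had the largest differences, -4.86, -3.85 and -3.50. GATA transcription factor 11 (Gh_D08G2116), of a zinc finger family, was at 13.1, 14.6 and 14.3 FPKM in the B leaves and at 0.318, 0.281 and 0.364 FPKM in the C leaves (log2 difference -3.50 ± 0.14, limma adjusted p = 2.35e-11). The neighbouring number in the gene catalogue, ubiquitin-like protein 5 (Gh_D08G2115), fell with it, from 3.12, 2.21 and 2.20 FPKM in B to 0.00694, 0.620 and 0.109 FPKM in C. Quinolinate phosphoribosyltransferase (Gh_D01G1478), an enzyme of NAD synthesis, was at 18.3, 16.9 and 17.2 FPKM in B and 1.85, 1.79 and 1.72 FPKM in C (log2 difference -2.73 ± 0.08, limma adjusted p = 9.34e-13). The spread within each line was small against the gap for GATA11 and the phosphoribosyltransferase, while the ubiquitin-like gene scattered in C without reaching B.

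The thioesterase FatB (Gh_A07G0026), a plastid enzyme that frees saturated fatty acids from their carrier protein, was at 13.5, 14.2 and 14.4 FPKM in B and 0.684, 1.22 and 1.40 FPKM in C. The aquaporin PIP1;4 gene (Gh_D06G2371), a water channel of the plasma membrane, was at 65.5, 63.1 and 52.8 FPKM in B and 16.2, 16.1 and 19.3 FPKM in C. Both were lower in C root too, by 1.68 for the thioesterase and 2.51 for the aquaporin on the log2 scale. A ribosomal protein S7 gene (Gh_A13G2227) was at 33.6, 31.5 and 20.6 FPKM in B and listed at 0 in all 3 C leaves. Its limma adjusted p of 0.0299 became 0.0623 to 0.109 when any 1 of the 6 libraries was left out. It became 0.0536 without a filter on low values, and the call was kept when only the 6 libraries were fitted. In root the gene was at 5.35 ± 1.75 FPKM in B and 6.85 ± 0.69 FPKM in C.

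**Figure D2:**
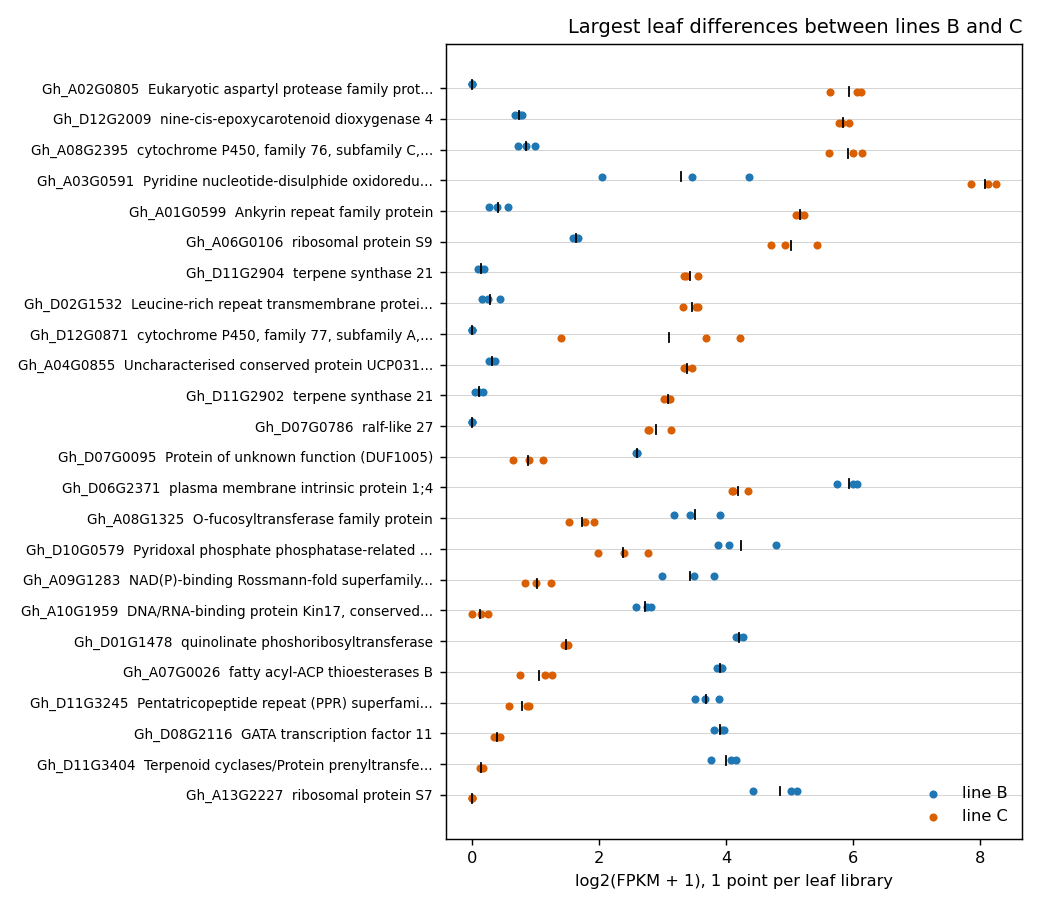
The 12 described genes with the largest difference in each direction, among those with a mean FPKM of at least 5 in the higher line and no overlap of libraries. Each point is the log2(FPKM + 1) of 1 leaf library (blue B, orange C), and black ticks are means of 3 libraries. The lines stay apart in every row, and wide scatter is seen for Gh_D12G0871 in C (1.66 to 17.6 FPKM) and Gh_A03G0591 in B (3.12 to 19.6 FPKM).

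Abundant genes higher in B included a pair of methyltransferases. The genes Gh_A03G0803 and Gh_D02G1225, which share the description of an S-adenosyl-methionine-dependent methyltransferase, were at 824.5, 556.7 and 509.2 FPKM and at 368.8, 226.5 and 221.2 FPKM in the B leaves. In the C leaves they were at 162.7, 178.6 and 308.1 FPKM and at 73.9, 82.5 and 141.8 FPKM. The lines did not overlap for either gene, and B library 1 was the highest and C library 3 the nearest to B in both. Both calls were lost without B library 1 (differences of -1.35 and -1.22, limma adjusted p = 0.0644 and 0.113) and without C library 2 (-1.46 and -1.36, limma adjusted p = 0.0516 and 0.0844), and that of Gh_D02G1225 also without C library 1 (-1.28, limma adjusted p = 0.0816). Metallothionein 2A (Gh_A01G1913), a small metal-binding protein, was 65.3 ± 7.1 FPKM in B and 26.7 ± 2.0 FPKM in C, and catalase 2 (Gh_A01G0845), which breaks down hydrogen peroxide, was 78.4 ± 9.8 and 39.1 ± 8.9 FPKM (SD, n = 3), the latter losing its call without B library 1 or C library 3 (limma adjusted p = 0.0703 and 0.0605). These 4 genes were chosen after their values were seen.

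Genes were then grouped by words in their deposited descriptions into 33 lists, with the clock genes that the study names as a further one. Over these 34 lists, 67 of 4622 distinct members tested were called, against 1.42% of all genes. Members of lists matched by words are described genes. Of all described genes tested, 223 of 28324 were called, a lower share than over all genes, so the 1.42% given beside each list is a high background. Members called were most frequent in terpenoid synthesis (6 of 53, 11.3%), flavonoid and anthocyanin synthesis (3 of 34, 8.82%), disease resistance proteins (7 of 105, 6.67%) and cytochromes P450 (9 of 158, 5.7%). No member was called in 9 lists. The counts are descriptions, since genes of a family are not independent.

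**Figure D3:**
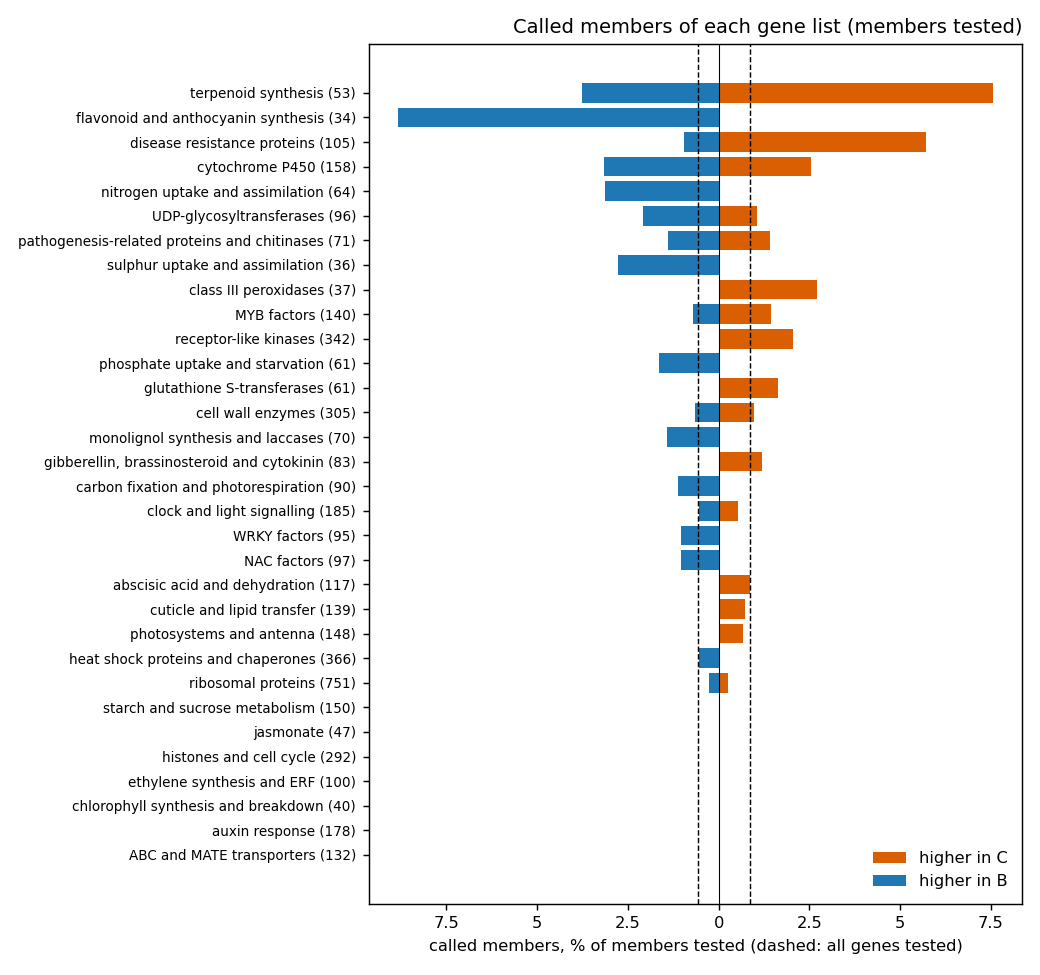
Called members of each list with at least 30 members tested, as a percentage of members tested (number in brackets), with members higher in C to the right and higher in B to the left. Dashed lines mark 0.861% and 0.56%, the shares over all genes tested. Terpenoid, flavonoid and resistance lists reach farthest from the dashed lines, and the lists at the foot hold no called member.

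The terpenoid list had the highest share of called members, 11.3%. Its 6 called members are all of the terpene synthase or terpenoid cyclase families, which fold prenyl diphosphates into terpenes, and 4 were higher in C and 2 in B. Terpene synthase 21 loci Gh_D11G2904 and Gh_D11G2902 were at 0.0684, 0.137 and 0.103 FPKM and at 0.0399, 0.129 and 0.0825 FPKM in the B leaves, against 9.35, 9.16 and 10.8 FPKM and 7.69, 7.56 and 7.13 FPKM in the C leaves. The C libraries were alike and the B libraries were near 0, with log2 differences of 3.29 ± 0.44 and 2.96 ± 0.40 (limma adjusted p = 0.000168 and 0.000178). Another locus with close gene numbers, Gh_D11G2893 with Gh_D11G2895, rose from 0.0135, 0.0258 and 0.0305 FPKM in B to 4.27, 7.73 and 5.71 FPKM in C. The last of the 4, Gh_A04G0198, was at 1.87, 2.68 and 2.85 FPKM in B and 12.5, 14.4 and 7.10 FPKM in C.

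At higher numbers of the same chromosome, D11, the order was the reverse. The terpenoid cyclase Gh_D11G3404 was at 12.6, 16.9 and 15.8 FPKM in the B leaves and at 0.0894, 0.109 and 0.126 FPKM in the C leaves (log2 difference -3.85 ± 0.20, limma adjusted p = 1.16e-09). Its neighbour Gh_D11G3403, again a terpene synthase 21, was at 2.90, 4.46 and 3.95 FPKM in B and at 0, 0.111 and 0.00649 FPKM in C. A resistance gene with numbers just below, Gh_D11G3400 with Gh_D11G3401, went the other way, from 0.389 ± 0.059 FPKM in B to 1.82 ± 0.21 FPKM in C. The 4 to 2 split of the terpenoid list was the same under every alternative except a pseudocount of 0.1, which gave 5 and 3, and an assignment of reads between near-identical family members cannot be checked with FPKM alone.

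These loci behaved differently across the other genotypes. The pair Gh_D11G2904 and Gh_D11G2902 was high in the maternal line A (9.69 and 6.93 FPKM) as in C, and near 0 in D (0.0535 and 0.0342 FPKM) as in B. Gh_D11G3404 was near 0 in A (0.0345 FPKM), in C and in their hybrid M (0.118 ± 0.023 FPKM), and was 15.6 FPKM in D and 15.6 ± 7.4 FPKM in the hybrid H. Its M minus H difference in leaf was -3.81, close to the C minus B difference. The highest mean of the 6 loci in the roots of B or C was 0.108 FPKM, and no terpenoid member was called in root, where 62 were tested.

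All called genes of flavonoid synthesis were lower in C. They were dihydroflavonol 4-reductase (Gh_D05G1836), flavanone 3-hydroxylase (Gh_A12G0549) and a chalcone synthase family gene (Gh_D10G1431 with Gh_D10G1429), enzymes on the route to anthocyanins and tannins. The reductase was at 23.3, 19.0 and 22.2 FPKM in the B leaves and at 6.60, 7.83 and 9.39 FPKM in the C leaves (log2 difference -1.34 ± 0.26, limma adjusted p = 0.00606, kept without any 1 library). The hydroxylase was at 76.1, 48.6 and 53.6 FPKM in B and 21.7, 24.4 and 28.7 FPKM in C, and the synthase at 48.1, 28.9 and 32.4 FPKM in B and 14.4, 15.9 and 17.0 FPKM in C. B library 1 was the highest for all 3, and no C library reached B. The hydroxylase call (limma adjusted p = 0.0283) was lost without B library 1 or 3 or C library 1 or 2 (0.0574 to 0.151). The synthase call (limma adjusted p = 0.0346) was lost without any 1 library except B library 2 (0.0646 to 0.182).

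A further 4 members passed the adjusted p in the same direction with a difference just under the limit of 1, among them the hydroxylase of chromosome D12, Gh_D12G0566 (46.1 ± 8.8 FPKM in B, 22.6 ± 3.9 FPKM in C) and the reductase Gh_A05G1647 (50.7 ± 8.5 and 25.0 ± 3.8 FPKM). No member passed the adjusted p as higher in C. The median over the 34 members was -0.028 and 16 lay above 0. The number called, 3, fell to 1 without B library 1 and also without C library 1, and rose to 8 with libraries centred on their medians, always with 0 higher in C. In root none was called, and the 3 genes differed by -0.03, 0.07 and -0.08 there. In leaf the same genes were lower in the hybrid M than in H, at 13.2 ± 4.0 against 28.7 ± 3.2 FPKM for the reductase Gh_D05G1836, 36.7 ± 8.2 against 67.3 ± 3.2 FPKM for the hydroxylase Gh_A12G0549 and 18.7 ± 1.5 against 42.5 ± 3.5 FPKM for the synthase, of which the first and the third were called.

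**Figure D4:**
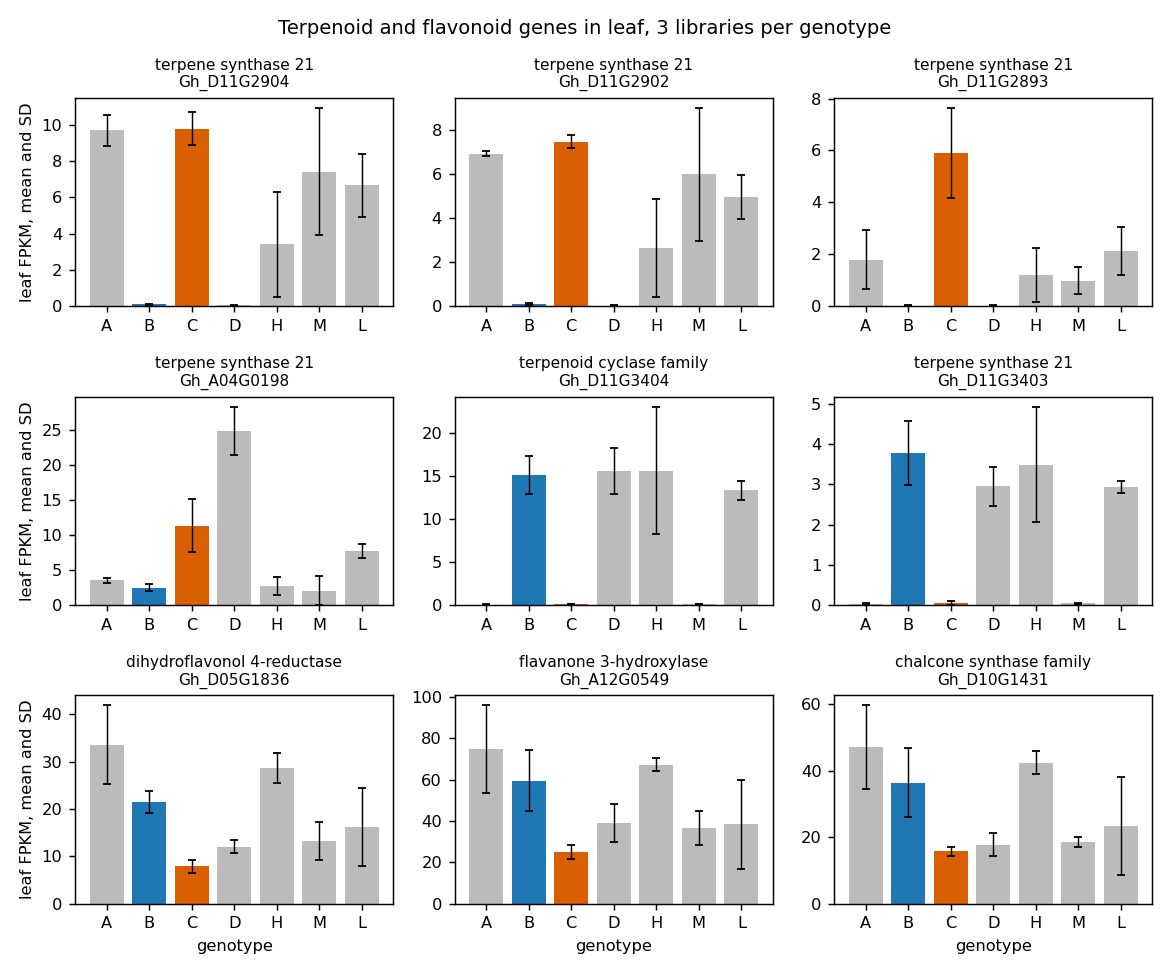
Leaf FPKM of the 6 called terpenoid genes and the 3 called flavonoid genes in each of the 7 genotypes, as means with SD of 3 libraries (B blue, C orange, the others grey). The first 3 terpene synthases are near 0 in B and D, 2 of the genes on chromosome D11 are near 0 in A, C and M, and the flavonoid genes are lowest in C, at 7.94, 24.9 and 15.8 FPKM.

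The called resistance and receptor genes were mostly higher in C. Of the disease resistance proteins, intracellular receptors of the NB-ARC class that recognise pathogens, 6 were higher in C and 1 in B. The locus Gh_D01G0348 with Gh_D01G0349 was at 0.0210, 0.0820 and 0.0474 FPKM in the B leaves and at 4.92, 5.87 and 5.93 FPKM in the C leaves (log2 difference 2.64 ± 0.09, limma adjusted p = 9.62e-12), and A was high too, at 6.07 FPKM. Gh_A11G2835 was at 0.0236, 0.0232 and 0.0133 FPKM in B and 1.57, 1.89 and 2.21 FPKM in C. The exception, a TIR-class gene (Gh_D10G2521 with Gh_D10G2522), was 1.54 ± 0.27 FPKM in B and 0.0778 ± 0.0243 FPKM in C. The 6 loci other than Gh_D01G0348 had means of at most 3.31 FPKM in either line.

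Of 342 receptor-like kinases, surface receptors for peptides and wall fragments, 7 (2.05%) were called and all 7 were higher in C. Over all genes tested, 1.42% were called in either direction and 0.861% as higher in C. Of the described genes, 118 of 28324 were called as higher in C. The share of kinases higher in C was thus above that of all genes, on a count of 7 related genes. A leucine-rich repeat kinase (Gh_D02G1532) was at 0.114, 0.189 and 0.365 FPKM in B and 8.99, 10.8 and 10.6 FPKM in C. The other genotypes had means of 0.218 (D) to 2.60 FPKM (L). The SD exceeded the mean in A (1.90 ± 2.79 FPKM), M (1.54 ± 2.54 FPKM) and L (2.60 ± 4.31 FPKM). The call of Gh_D02G1532 was lost without B library 1 or 2 or C library 2 (limma adjusted p = 0.0688, 0.0539 and 0.0635). It was also lost with a pseudocount of 0.1 (limma adjusted p = 0.0522) and was kept when only the 6 libraries of B and C were fitted. Wall-associated kinase 2 (Gh_A05G2032), of a family that binds pectin, was at 0.136, 0.0213 and 0.0292 FPKM in B and 2.56, 2.54 and 6.90 FPKM in C. The resistance list kept 4 to 6 members higher in C and 1 in B under each alternative but a pseudocount of 0.1 (10 and 2). The kinase list kept 5 to 7 and 0, with 1 higher in B without C library 3 and 9 against 1 at an unadjusted p. Pathogenesis-related proteins and chitinases, the products of an active defence, had 1 of 71 higher in each line, and jasmonate genes had 0 of 47.

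Cytochromes P450 went both ways, with 4 higher in C and 5 in B. CYP77A4 (Gh_D12G0871), which oxidises fatty acids in Arabidopsis, was listed at 0 in B and at 1.66, 11.9 and 17.6 FPKM in C, and its call (limma adjusted p = 0.0368) was lost from the 6 libraries alone (0.112) and without any 1 of the libraries except C library 1 (0.0882 to 0.145). CYP87A2 (Gh_A01G0396) rose from 7.85, 8.66 and 7.25 FPKM in B to 21.4, 24.4 and 22.5 FPKM in C. CYP707A3 (Gh_A08G1344), an abscisic acid hydroxylase, was at 9.43, 5.79 and 7.63 FPKM in B and 2.92, 3.03 and 2.80 FPKM in C. Without B library 1 the list counted 3 higher in C and 0 in B, with differences of -0.92 to -1.05 in the latter 5 genes. Without any 1 of the other libraries it counted 3 to 5 and 2 to 4.

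Of the genes of nutrient uptake and assimilation, 2 of 64 for nitrogen, 1 of 36 for sulphur and 1 of 61 for phosphate were called, against 1.42% of all genes, and all were higher in B. Asparagine synthase 1 (Gh_D13G2340), which stores nitrogen as asparagine, was at 118.7, 67.7 and 56.9 FPKM in B and 27.8, 30.2 and 36.1 FPKM in C, and a nitrate transporter 1:2 gene (Gh_D12G1658) was at 6.48, 3.82 and 3.32 FPKM in B and 1.57, 0.756 and 1.52 FPKM in C. B library 1 was highest for both, and the asparagine synthase lost its call without it (log2 difference -0.97, limma adjusted p = 0.179) and also without B library 2, C library 1 or C library 2 (differences of -1.20 to -1.37, limma adjusted p = 0.0585 to 0.0993). The nitrogen list had a median of 0.017 with 35 of 64 members above 0. Its abundant member glutamine synthetase 2 (Gh_D02G0311), the enzyme that fixes ammonium in the chloroplast, was 530.4 ± 24.7 FPKM in B and 538.9 ± 32.2 FPKM in C (log2 difference 0.02, 95% interval -0.16 to 0.20). 

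The cysteine-forming O-acetylserine thiol-lyase A1 (Gh_A13G0863) was at 9.97, 9.33 and 9.53 FPKM in B and 2.76, 2.94 and 2.45 FPKM in C, and was lower in C root as well. The sulphur list had a median of -0.198, against 0.063 over all genes tested, and 3 of its 36 members passed the adjusted p as lower in C and 1 as higher. That one was an APS reductase 3 (Gh_D06G1636), the step that commits sulphate to reduction, at 20.9, 17.4 and 12.8 FPKM in B and 21.9, 36.1 and 40.2 FPKM in C with a difference of 0.89, under the limit. A phosphate starvation-induced gene 3 (Gh_A03G0512), a glycerol-3-phosphate transporter in Arabidopsis, was at 10.1, 7.42 and 8.33 FPKM in B and 2.47, 2.43 and 3.59 FPKM in C.

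Few genes of photosynthesis were called, at shares below that of all genes (1.42%) and on at most 1 called gene per list. The 1.42% is a high background for described genes. Of 148 photosystem and antenna genes 1 was called (0.676%), of 90 genes of carbon fixation and photorespiration 1 (1.11%), and of 40 chlorophyll and 150 starch and sucrose genes none, where 5 and 29 had an unadjusted p under 0.05 in limma. The carbon fixation list had a median of -0.15, with 30 of 90 members above 0, and 6 members passed the adjusted p as lower in C against 1 as higher. An example under the fold limit was a subunit of the chloroplast glyceraldehyde-3-phosphate dehydrogenase (Gh_A05G1529), a Calvin cycle enzyme, at 244.9, 220.5 and 214.3 FPKM in B and 165.6, 148.1 and 164.9 FPKM in C (log2 difference -0.50 ± 0.08, limma adjusted p = 0.00125). These small differences run the same way as the lower leaf marker sum of the C libraries, and their part in one another was not tested.

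Of 185 clock and light signalling genes 1 was called in each direction, and both carry the description of an NPH3 family protein, the family of a phototropism adaptor. Gh_A03G2165 was at 2.65, 2.66 and 2.75 FPKM in B and 8.57, 7.34 and 9.42 FPKM in C, and Gh_D01G0808 at 7.51, 5.16 and 6.66 FPKM in B and 2.02, 2.26 and 2.13 FPKM in C. The most abundant member of the list, again of that family (Gh_A08G1808), was 171.3 ± 11.04 and 173.9 ± 6.9 FPKM in the lines. Among the 16 clock genes that the study names none was called, none had an unadjusted p under 0.05 in limma, and their median difference was -0.02. The study chose those genes on this series. Several were low in both lines, such as Gh_D05G1029 (means of 0.105 FPKM in B and 0.266 FPKM in C) and Gh_A05G0944 (0.244 and 0.405 FPKM). Leaves of the hybrid H had 2.05 and 1.20 FPKM of these 2 genes. For genes so low in both lines, the absence of a call says little.

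The remaining lists held few called genes each, at shares above or below the 1.42% of all genes tested, such as 1.64% of cell wall enzymes and 0.533% of ribosomal proteins. Cell wall enzymes had 3 of 305 higher in C, among them expansin A4 (Gh_A04G0707, 7.28 ± 1.40 FPKM in B and 15.9 ± 3.5 FPKM in C), a protein that loosens walls, and 2 higher in B, among them the xyloglucan-cutting XTH32 (Gh_A08G1784, 6.49 ± 2.22 and 2.43 ± 0.79 FPKM). The expansin call was lost without B library 1 or 3 or C library 1 or 2, and the XTH32 call without B library 1 or C library 1 or 2. Among the factors, MYB48 (Gh_D03G1250) was higher in C (5.52 ± 0.55 FPKM in B, 15.2 ± 1.8 FPKM in C), and NAC83 (Gh_D04G1368) was higher in B (34.9 ± 7.7 and 15.8 ± 1.0 FPKM), as was a WRKY factor (Gh_D13G1418, 3.52 ± 0.06 and 0.399 ± 0.078 FPKM). Ribosomal proteins had 2 of 751 higher in each line, and heat shock proteins 2 of 366 higher in B. Auxin, ethylene, ABC and MATE transporter, and histone or cell cycle genes had none called of 178, 100, 132 and 292. In these lists limma gave 35, 25, 24 and 58 at an unadjusted p under 0.05.

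The called genes that could be placed by name lay on both subgenomes alike. The 447 called loci without a gene name could not be placed and are not in these counts. By gene name, 159 of 17556 tested genes of the A subgenome (0.906%) and 158 of 18033 of the D subgenome (0.876%) were called. The share was highest on chromosome A04 (1.83%, 14 genes) and lowest on A12 (0.336%, 5 genes). In 8 cases genes with the same description on the A and the D copy of a chromosome were both called, and in 7 of them in the same direction. The putative lysine decarboxylases Gh_A05G1600 and Gh_D05G1786, a description that the cytokinin-activating LOG enzymes of Arabidopsis share, were 4.84 ± 1.75 and 16.7 ± 3.8 FPKM in B and 1.21 ± 0.27 and 5.68 ± 1.90 FPKM in C. The exception was a pair of ankyrin repeat genes on chromosome 10, with 1.79 for the A copy (Gh_A10G1908) and -1.98 for the D copy (Gh_D10G2195 with Gh_D10G2202). Descriptions were matched by their words, so that these pairs may include genes that are not homoeologues.

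The same pair of lines was then compared in root, in other libraries of the same plants. There too, the C libraries had on average fewer valid reads and a lower mapped share than the B libraries. In root, 635 of 59282 genes (1.07%) differed, 316 higher in C (0.533%) and 319 higher in B (0.538%). Of the 472 genes higher in C leaf, 325 were tested in root, and 156 of these (48%) were called as higher in C root and none as lower. Of the 307 genes higher in B leaf, 222 were tested in root, and 104 (46.8%) were called as higher in B root and none as lower. In the opposite view, these were 49.4% and 32.6% of the root calls. The sign was the same in 86.8% and 82% of the leaf calls tested, and the median root differences were 1.02 and -0.92. Among the genes higher in C, 89 of 238 with a leaf difference between 1 and 2 were called in both tissues, 42 of 53 between 2 and 3, and 25 of 34 above 3. Among those higher in B the counts were 69 of 181, 24 of 28 and 11 of 13, so that the share was lower below a size of 2 and did not rise further above 3.

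A 14-3-3 protein gene (general regulatory factor 3, Gh_D07G1749), a phosphoprotein-binding regulator, shows such a gene of both tissues: it was at 37.1, 41.1 and 36.6 FPKM in B leaves and 85.2, 82.4 and 81.4 FPKM in C leaves, and at 80.8 ± 3.3 and 171.1 ± 12.8 FPKM in root. The other genotypes had leaf means of 39.7 to 43.6 FPKM, so C stood alone. Ferrochelatase 1 (Gh_D01G1455), the last enzyme of haem synthesis, was 0.0810 ± 0.0116 FPKM in B leaf and 3.21 ± 0.55 FPKM in C leaf, and 0.0643 ± 0.0587 and 3.87 ± 1.15 FPKM in root. Both genes were chosen after their values were seen.

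The test of the difference between the tissues itself called 568 of 69603 genes (0.816%), 333 with a higher C minus B difference in leaf (0.478%) and 235 with a lower one (0.338%). The aspartyl protease Gh_A02G0805 had the greatest such value of the named genes called in this test, 9.31, followed by the oxidoreductase Gh_A03G0591 with 4.70, whose root levels were 3.18 ± 4.14 FPKM in B and 3.69 ± 4.89 FPKM in C. The terpene cyclase Gh_D11G3404 had the lowest among them, -3.77, and the ribosomal protein S7 gene Gh_A13G2227, with -5.19, was not called (limma adjusted p = 0.0677). The thiol-lyase Gh_A13G0863 and the 14-3-3 gene Gh_D07G1749, with values of -0.23 and 0.03, were not called.

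**Figure D5:**
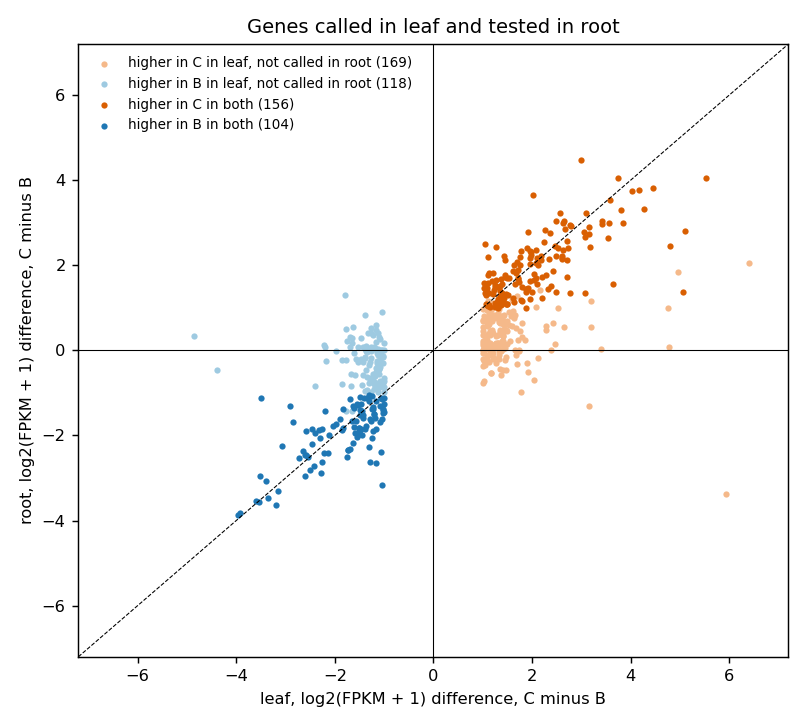
C minus B difference of log2(FPKM + 1) in leaf (x axis) and root (y axis) for the genes called in leaf and tested in root. Dark points are the 156 genes higher in C and 104 higher in B in both tissues, pale points are called in leaf only, and the dashed line marks equal differences. No gene is called in opposite directions, and the pale point at 5.94 in leaf and -3.37 in root is the aspartyl protease Gh_A02G0805.

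The other genotypes place the lines. On log2(mean FPKM + 1) in leaf, A and D were both nearer to C for 285 of the 779 called genes and both nearer to B for 166, while A was nearer to B and D to C for 197 and the reverse held for 131. Line D was nearer to C for 63.8% of the genes higher in C and for 59% of those higher in B. B was thus the line apart more often than C, and this is a count over genes that are not independent. By the study's sequencing summary, C and D leaves had on average fewer valid reads and a lower mapped share than A and B leaves. Sequencing and line can therefore not be told apart in this count. A pentatricopeptide repeat gene (Gh_D11G3245 with Gh_D11G3246), of a family that edits and processes organelle RNA, is an example of B apart, at 11.98 ± 1.73 FPKM in B and 0.518 to 0.861 FPKM in A, C and D.

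The hybrids H and M share the mother A and differ in the father, B or C. Between their leaves 614 of 54835 genes (1.12%) differed, 272 higher in M (0.496%) and 342 higher in H (0.624%). The means compared come from H and M libraries alone, while the spread was estimated over all 21 leaf libraries, B and C included. Of the 472 genes higher in C, 43 were higher in M and 27 higher in H. Of the 307 genes higher in B, 46 were higher in H and 8 higher in M. The sign was that of the fathers in 57.2% of the genes higher in C and 70.7% of those higher in B, and the median M minus H differences were 0.10 and -0.27. The count between the hybrids rests on the libraries used, with 262 genes from these 6 libraries alone and 1057 without M library 3, and the split became 323 higher in M and 240 higher in H with libraries centred on their medians.

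Among the genes higher in C, 34 of the 38 above 3 had the same sign between M and H and 12 were called, against 186 and 17 of the 360 between 1 and 2. Among those higher in B, 14 of the 19 below -3 had the same sign and 5 were called, against 31 and 15 of the 36 between -2 and -3 and 172 and 26 of the 252 between -1 and -2. GATA11 (Gh_D08G2116) was 12.3 ± 3.0 FPKM in H and 3.28 ± 0.49 FPKM in M, and the dioxygenase Gh_D12G2009 7.89 ± 11.4 FPKM in H and 20.1 ± 6.9 FPKM in M. RAD-like 6 (Gh_D11G1091), a small MYB-related factor named here after its values were seen, was at 19.9, 18.8 and 19.1 FPKM in B, 53.4, 56.4 and 82.2 FPKM in C, 18.9 ± 4.7 FPKM in H and 114.0 ± 28.8 FPKM in M, and 7.29 ± 6.06 FPKM in A. By contrast the oxidoreductase Gh_A03G0591 and the ankyrin gene Gh_A01G0599 did not pass between the hybrids, with differences of -0.24 and 0.00.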

How the data were processed

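Reads from root and leaf RNA of 7 genotypes were cleaned, mapped by the authors with HISAT2 to the genome of the TM-1 cultivar and quantified with StringTie, per the labels and the study's methods. Tool versions: not given in the sources used here. Deposited by the authors are FPKM for 100881 loci, several of which may share a gene name. No counts were used, so no counting error can be given.

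Values were taken as log2(FPKM + 1) of the deposited FPKM, and a gene was tested in a tissue where 3 or more libraries reached 1 FPKM. limma 3.58.1 was run in R 4.3.3 (files read with the R package data.table, version 1.17.8) on the 21 libraries of a tissue together, with a mean for every genotype and a mean-variance trend, and contrasts were 2-sided with Benjamini-Hochberg adjustment over all genes tested. The contrast between tissues was fitted over all 42 libraries. A gene was called where the adjusted p was below 0.05 and the log2 difference exceeded 1 in size. The fit was tested on simulated data. With 3 libraries per group, p-values and SE measure the spread between these samples. That spread was estimated over all libraries in a fit, not over those of B and C alone.

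The lines, the lists and the tests were chosen with earlier results of these data known. Lists were matched by words in the descriptions, and some words were narrowed where they caught other families. Named genes were called genes with a description and no overlap of libraries: the 12 largest differences per direction with a mean FPKM of at least 5, up to 3 members per list, and up to 6 genes per direction listed at 0 in one line and at a mean FPKM of at least 5 in the other. The 2 most abundant members of the clock, nitrogen and sulphur lists were added whether called or not. Other genes were chosen after their values were seen: those so marked, further list members, pairs on A and D chromosomes and list members under the fold limit. Alternatives were a pseudocount of 0.1, other filters, scalings and libraries in the fit, the replicate number as a block, an unadjusted p, and each replicate left out. A fit of the 12 inbred libraries was added after seeing the data. Replicate numbers did not pair the libraries, as deviations of libraries with one number correlated between -0.04 and 0.005. None of the gene IDs (0) was found in the RefSeq annotation of another assembly, so coordinates and sequences were not used here. Figures were drawn with matplotlib 3.10.9 in Python 3.11.15.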

Additional observations from a re-analysis of the deposited data

Results flagged for a closer look

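For 44 of the 103 named genes called in leaf, the C minus B difference in leaf departed from that in root by the test of the difference itself (limma, adjusted p under 0.05 and a size above 1). Over all genes, 0.816% were called in that test. The values below are the leaf difference minus the root difference, on the scale of log2(FPKM + 1), and cover genes chosen because they were called in leaf, so that large leaf values are favoured by the choice. Some of these genes were near 0 in the roots of both lines, so that the value mainly repeats the leaf difference. Examples are Gh_D11G2904 (0.0488 FPKM in B root and 0.0912 FPKM in C root, 3.23 against 3.29 in leaf) and Gh_D11G3404 (0.108 and 0.0477 FPKM, -3.77 against -3.85). In such genes a line difference in root could not be seen.

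In 21 genes the C minus B difference was higher in leaf. The highest values were 9.31 for Gh_A02G0805, 4.7 for Gh_A03G0591, 3.69 for Gh_A08G2395, 3.23 for Gh_D11G2904, 2.93 for Gh_D11G2902, 2.9 for Gh_D07G0786 and 2.74 for Gh_D11G2893 with Gh_D11G2895. They were followed by 2.24 for Gh_D01G0348 with Gh_D01G0349, 1.93 for Gh_A05G2032, 1.91 for Gh_D05G3615, 1.83 for Gh_A04G0052, 1.82 for Gh_A04G0198, 1.77 for Gh_D06G2016 and 1.73 for Gh_A04G0855. The lowest of these values were 1.45 for Gh_A10G1908, 1.38 for Gh_A01G0396, 1.38 for Gh_D13G2116, 1.29 for Gh_D08G1219, 1.24 for Gh_D03G1250, 1.18 for Gh_Sca004820G01 and 1.16 for Gh_D06G2020 with Gh_D06G2019.

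In 23 genes the C minus B difference was lower in leaf. The lowest values were -3.77 for Gh_D11G3404, -2.39 for Gh_D08G2116, -2.19 for Gh_D11G3403, -2.02 for Gh_D07G0095, -1.96 for Gh_D10G2195 with Gh_D10G2202 and -1.82 for Gh_D08G1617. Next came -1.78 for Gh_A01G1913, -1.75 for Gh_D02G1225, -1.71 for Gh_A05G0294, -1.66 for Gh_D12G1658, -1.64 for Gh_A10G1514, -1.6 for Gh_D11G3245 with Gh_D11G3246 and -1.54 for Gh_A08G1325. The smallest departures were -1.5 for Gh_D05G1786, -1.48 for Gh_A05G1600, -1.47 for Gh_A07G2018, -1.35 for Gh_D04G1368, -1.33 for Gh_A03G0512, -1.22 for Gh_D01G0808, -1.2 for Gh_D10G1166, -1.16 for Gh_A08G1344, -1.14 for Gh_D12G0557 and -1.1 for Gh_D08G2115.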

How the results depend on the processing

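The 779 genes called between the leaves of C and B became 1285 with a pseudocount of 0.1, of which 738 were among the 779, and 643 to 851 with 1 library left out. Other settings gave 681 to 803 genes, or 1166 at an unadjusted p. List members called went from 67 to 104 with a pseudocount of 0.1, to 102 at an unadjusted p, and to 47 to 73 with 1 library left out. The root calls went from 635 to 1035 at an unadjusted p and to 581 to 670 with 1 library left out. The calls between M and H went from 614 to 954 with a pseudocount of 0.1 (34% of them higher in M, against 44.3%), to 262 from the 6 libraries alone, to 1516 at an unadjusted p, and to 416 to 1057 with 1 library left out. The calls between tissues went from 568 to 1549 at an unadjusted p and to 381 to 634 with a replicate left out. The causes of these moves were not tested. With the replicate number as a block there were 765 genes in leaf, 626 in root and 577 between the hybrids, and 562 between tissues with the plant as a block, and the numbers did not pair the libraries. None of the 116 named genes reversed under any setting run, while 32 lost their call without B library 1, 24 without C library 2 and 22 from the 6 libraries alone. FPKM carry no read counts, so the counting error of low genes is unknown, and leaf sequencing quality cannot be told apart from line.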
